A study of Mus musculus with 3 samples.

Results

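Semaphorins are membrane-bound or secreted guidance proteins, plexins are their main signalling receptors, and neuropilins are co-receptors that bind secreted semaphorins and vascular endothelial growth factors. The mRNA of 10 such genes was followed through 3 libraries of monocytes and monocyte-derived antigen-presenting cells (APCs) from mice with experimental autoimmune encephalomyelitis (EAE). The genes were taken from a fixed list of the semaphorins Sema4a, Sema4b, Sema4d and Sema6d, the plexins Plxna1, Plxnb2, Plxnc1 and Plxnd1, and the neuropilins Nrp1 and Nrp2. They are 10 of the 31 genes of these families and of the 22238 genes listed for all 3 libraries. They held 98.4%, 95.6% and 93.5% of the summed TPM of the 31 genes in the monocytes of the bone marrow, those of the spinal cord and the APCs, where TPM is a length-corrected share of all transcripts.

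Plexins carry a cytoplasmic domain that switches off small GTPases of the Ras and Rap type, and binding of a semaphorin alters adhesion and the actin skeleton of the cell. In the immune system, class 4 semaphorins on dendritic cells, T cells and B cells act as costimulatory ligands, and plexin-A1 on dendritic cells takes part in T cell priming. Secreted class 3 semaphorins mostly need a neuropilin to signal through class A plexins, whereas plexin-D1 can also bind Sema3E directly.

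EAE was induced in C57BL/6J female mice, 10 to 12 weeks of age and labelled wild type (WT) in all groups. They received myelin oligodendrocyte glycoprotein peptide in complete Freund's adjuvant and 250 ng of pertussis toxin at 2 and 24 hours. Cells were sorted at days 14 to 15, when paralysis was severe, and every group was immunized, so there was no library from unimmunized mice. Bone marrow monocytes (BM-Mono) were CD45+ CD11b+ Ly6Chi Ly6G- CD11c- cells pooled from 13 mice in 2 experiments. Spinal cord monocytes (SC-Mono) were CD45+ CD11b+ CD64+ Ly6Chi Ly6G- cells, and APCs (SC-APC) were CD45+ CD11b+ CD64+ Ly6Clow/- Ly6G- cells, both pooled from 18 mice in 3 experiments. One label of the APC sample names bone marrow as the source, whereas its title and tissue label name the spinal cord, and it was taken as spinal cord. With 1 library per population, no difference has a replicate check, and every interval covers counting error only. The libraries held 33280643, 27283795 and 28209589 estimated reads, and the APC reads had been assigned to another transcript set, with 22242 listed genes against 54432 for each monocyte library.

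All 8 monocyte markers checked, among them Ly6c2 and Ccr2, were above 3 TPM in every library. Their summed TPM was 11135, 9631 and 3948 in BM-Mono, SC-Mono and SC-APC. Ly6c2 had 5205, 3602 and 1067 TPM, and Ccr2 had 1629, 299 and 139 TPM. From SC-Mono to SC-APC, Ly6c2, Ccr2 and Plac8 were called lower on reads, but Ccr2 not per effective length. From BM-Mono to SC-Mono, Ccr2 was called lower and Fcgr1 and Csf1r higher. The 5 APC markers, such as Itgax and H2-Ab1, summed to 631, 4698 and 11206 TPM. Of these, 4 were called higher in SC-Mono and 3 again in SC-APC. Of 10 microglia markers, 9 were called higher in SC-Mono than in BM-Mono and 9 higher in SC-APC than in SC-Mono, with summed TPM of 227, 559 and 1155 in BM-Mono, SC-Mono and SC-APC. Summed TPM of 9 T cell markers was 0.621, 65.7 and 84.4, and that of 11 endothelial markers was 85.9, 172 and 92.7. Ly6c1, which monocytes also express, held 68.1, 76.2 and 35.4 TPM of the endothelial sum, whereas the endothelial genes Slco1a4 and Cldn5 had 0 reads in BM-Mono and 366 and 256 in SC-Mono, and 204 and 137 in SC-APC. The defining oligodendrocyte gene Mog had 0, 4 and 3 reads, and the 7 oligodendrocyte markers summed to 102.9, 78.1 and 75.3 TPM. Of 6 markers of CNS-associated macrophages, 2, 3 and 3 were above 3 TPM, and the list summed to 15.7, 36.8 and 51.1 TPM. Among these, Mrc1 had 159, 649 and 1915 reads and was called higher in both steps, Siglec1 had 314, 2561 and 2309 reads and was called higher in the first, and Lyve1 had 0, 2 and 0 reads. Neutrophil markers (7 genes) summed to 4999, 726 and 709 TPM, of which S100a8 held 4471, 678 and 498 TPM. From SC-Mono to SC-APC the neutrophil granule genes Ngp (445 and 3178 reads) and Ltf (234 and 1410 reads) were called higher. In that step the granule gene Elane (48 and 13 reads) was called lower on reads but not per effective length, and the other neutrophil markers were not called. Conventional dendritic cell markers (6 genes) summed to 40.8, 21.3 and 28.3 TPM, with Flt3 at 37.8, 3.65 and 6.65 TPM. From BM-Mono to SC-Mono Flt3 was called lower, whereas Batf3 (29 and 106 reads) and Clec9a (7 and 118 reads) were called higher. Zbtb46 (2, 31 and 241 reads) and Itgae (1, 44 and 243 reads) were called higher in SC-APC than in SC-Mono. Plasmacytoid dendritic cell markers (5 genes) summed to 36.1, 39.3 and 71.8 TPM, with Bcl11a called lower in SC-Mono and Siglech, which is also on the microglia list, called higher in both steps. B cell markers (6 genes) summed to 200.5, 25.4 and 43.9 TPM, and astrocyte markers (5 genes) to 3.01, 14.0 and 18.1 TPM, while none of 5 neuron markers exceeded 3 TPM. In sorted bulk RNA, a change in the share of a cell type and a change in mRNA per cell cannot be told apart, and the part of these other cells in the values given here was not tested.

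TPM was rescaled so that the common genes had equal sums in all libraries. Fold changes were taken from reads with median-of-ratios size factors, with a 98% counting interval. A gene was called higher or lower if the whole interval exceeded a 2-fold change and TPM was above 3 in at least 1 of the 2 libraries. Because the APC library used another transcript set, each fold change was also taken from reads divided by the effective length of the gene, which is a mean over its transcripts in that library. From BM-Mono to SC-Mono, 13.8% of the 10072 genes above 3 TPM were called higher and 10.7% lower. From SC-Mono to SC-APC, 1.93% of 9734 genes were called higher and 1.70% lower. From BM-Mono to SC-APC, 14.0% of 10190 genes were called higher and 11.8% lower.

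Of the 10 genes, 9 were above 3 TPM in BM-Mono or SC-Mono, the exception being Sema6d. Of these 9, 2 were called higher in SC-Mono, Plxna1 and Nrp2, and 1 was called lower, Nrp1. The median log2 fold change of the 9 genes was -0.30, against -0.15 over all genes above 3 TPM. From SC-Mono to SC-APC, 1 of the 9 was called higher, Plxnc1, and 0 lower, with a median of 0.21 against -0.04. With reads divided by effective length, Plxnb2 was also called lower in the first step, where 14.0% of all genes were called higher and 11.2% lower. Plxnc1 was no longer called in the second step on that scale, where 2.38% were called higher and 3.29% lower. From BM-Mono directly to SC-APC, Plxna1 and Nrp2 were called higher and Nrp1 lower on both scales, with 14.3% of all genes called higher and 12.7% lower per length. The comparisons share libraries and are not independent of each other.

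**Figure D1:**
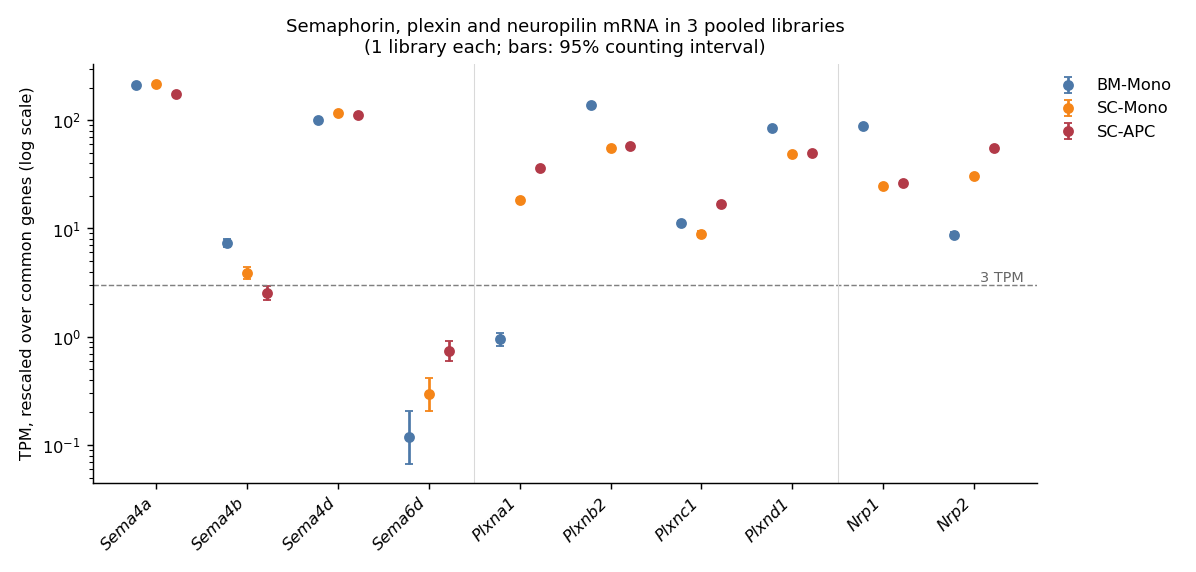
TPM of the 10 genes (log axis) in the pooled BM-Mono, SC-Mono and SC-APC libraries, 1 point per library with its 95% counting interval and a dashed line at 3 TPM. The highest and lowest points differ by a ratio of 1.25 for Sema4a and 1.15 for Sema4d, Plxna1 spans 0.944 to 36.2 TPM, and Nrp1 and Nrp2 run in opposite directions from BM-Mono to SC-Mono.

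Sema4a, a class 4 semaphorin of dendritic cells that costimulates T cells, was the most abundant of the 31 genes in every library. It stood at 211 TPM in BM-Mono, 217 TPM in SC-Mono and 173 TPM in SC-APC, among the highest 3.34% of all genes in each. The ratio of the highest to the lowest value was 1.25. Sema4a was not called in either step: the log2 fold change to SC-Mono was 0.30 (98% interval 0.25 to 0.36), and that onward to SC-APC was -0.54 (98% interval -0.60 to -0.49). Divided by effective length the latter was -0.24, and SC-APC and BM-Mono then did not differ beyond counting error, at 0.03 (98% interval -0.02 to 0.09).

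Sema4d (CD100), a ligand of plexin-B1, plexin-B2 and, on lymphocytes, CD72, had 101 TPM in BM-Mono, 116 TPM in SC-Mono and 113 TPM in SC-APC. Its 8266, 9086 and 9751 reads gave a log2 fold change of 0.62 (98% interval 0.57 to 0.67) in the first step, not called. In the second step the sign depended on the scale, at -0.05 (98% interval -0.10 to -0.01) on reads and 0.03 (98% interval -0.01 to 0.08) on reads divided by effective length. The 2 spinal cord libraries were thus separated on reads but not per length, and both lay above BM-Mono.

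Sema4b, a less studied transmembrane member of the same class, was low and stood at 7.39, 3.89 and 2.54 TPM in BM-Mono, SC-Mono and SC-APC, with 546, 259 and 188 reads. All 3 libraries lay apart beyond counting error, in that order. Its log2 fold change was -0.59 in the first step, with a 98% interval of -0.85 to -0.34, and -0.62 in the second, with a 98% interval of -0.94 to -0.30, neither called. From BM-Mono directly to SC-APC the log2 fold change of Sema4b was -1.21 (98% interval -1.50 to -0.93).

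Sema6d, a transmembrane ligand of plexin-A1, was near the detection limit, with 12 reads in BM-Mono, 31 in SC-Mono and 84 in SC-APC. Its TPM of 0.117, 0.294 and 0.740 stayed under 3 in every library, so it could not be called. On reads, Sema6d had a first log2 fold change of 1.80 (98% interval 0.74 to 2.99) and a second one of 1.26 (98% interval 0.59 to 1.99). Of the receptor and ligand pair Plxna1 and Sema6d, both were lowest in BM-Mono and highest in SC-APC.

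Plxna1 encodes plexin-A1, the receptor of Sema6D, which on dendritic cells associates with TREM2 and the adaptor DAP12. It lies on chromosome 6 of GRCm38 from 89316314 to 89362620, on the minus strand. It had 177 reads in BM-Mono, 2596 in SC-Mono and 4599 in SC-APC, or 0.944, 18.3 and 36.2 TPM. BM-Mono stood under 3 TPM and both spinal cord libraries above it. The log2 fold change of the first step was 4.35 (98% interval 4.10 to 4.62), or 20.4-fold, the largest among the 10 genes, and it was called. The second step gave 0.67 (98% interval 0.59 to 0.75) on reads and 1.07 (98% interval 0.99 to 1.15) per length, neither called.

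The length that the files give for Plxna1, a mean over its transcripts weighted by their abundance, differed between the libraries. It was 9034 bases in BM-Mono, 7615 in SC-Mono and 6340 in SC-APC. GENCODE M21 lists 6 transcripts of Plxna1, of which the 2 coding ones are 5810 and 9034 bases long. The BM-Mono value equals the longer coding transcript. The 2 monocyte libraries share a transcript set and differ as well, but the BM-Mono value rests on 177 reads.

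Plxnb2, a receptor of class 4 semaphorins, was the most abundant plexin in each library. It stood at 138 TPM in BM-Mono, 55.0 TPM in SC-Mono and 57.9 TPM in SC-APC. BM-Mono was the high library, and the 2 spinal cord libraries lay close together. Its 16666 and 5850 reads gave -1.03 (98% interval -1.08 to -0.98) as the first log2 fold change. The interval included a 2-fold change, so Plxnb2 was not called, whereas per length it was called lower, at -1.08 (98% interval -1.13 to -1.03). The second step was 0.21 (98% interval 0.15 to 0.27).

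Plxnd1, the receptor of Sema3E and a reported receptor of Sema4A, stood at 84.6 TPM in BM-Mono, 48.4 TPM in SC-Mono and 49.6 TPM in SC-APC. Its log2 fold change from BM-Mono to SC-Mono was -0.60 (98% interval -0.66 to -0.53), not called. Its reads in SC-Mono and SC-APC were 3602 and 6887, and the second log2 fold change was 0.78 (98% interval 0.71 to 0.85) on reads but 0.12 (98% interval 0.05 to 0.19) per length. The effective length of Plxnd1 was 3841 bases in SC-Mono and 6657 bases in SC-APC, and GENCODE M21 lists 5 transcripts of 417 to 6907 bases. For BM-Mono against SC-APC the sign itself changed, from 0.18 on reads to -0.44 divided by effective length.

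Plxnc1, the receptor of Sema7A, was the lowest of the 4 listed plexins in SC-Mono and SC-APC, at 11.2 TPM in BM-Mono, 8.94 TPM in SC-Mono and 16.8 TPM in SC-APC. SC-APC was the high library, and the 2 monocyte libraries were separated on reads alone, at -0.30 (98% interval -0.44 to -0.17), but not per length, at -0.08 (98% interval -0.22 to 0.06). Its 929 and 2339 reads gave the call in the second step, at 1.17 on the log2 scale (98% interval 1.05 to 1.31). Per length the value was 0.99 (98% interval 0.86 to 1.12), not called.

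The neuropilins moved in opposite directions between the 2 monocyte libraries. Nrp1 (chromosome 8 of GRCm38, 128358604 to 128503363), a co-receptor of Sema3A and of VEGF-A, had 88.0 TPM in BM-Mono, 24.6 TPM in SC-Mono and 26.2 TPM in SC-APC. It was called lower in SC-Mono, at -1.51 on the log2 scale (98% interval -1.61 to -1.42), or 2.85-fold. The 2 spinal cord libraries did not differ beyond counting error on reads, at 0.08 (98% interval -0.04 to 0.20), while per length the value was 0.17 (98% interval 0.06 to 0.29).

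Nrp2 (chromosome 1 of GRCm38, 62703285 to 62818695), a co-receptor of Sema3F and of VEGF-C, had 8.77 TPM in BM-Mono, 30.6 TPM in SC-Mono and 55.5 TPM in SC-APC. It was called higher in SC-Mono, at 2.15 on the log2 scale (98% interval 2.04 to 2.27), or 4.45-fold. The second log2 fold change was 0.76 (98% interval 0.69 to 0.82) on reads and 0.94 (98% interval 0.88 to 1.01) divided by effective length, neither called. All 3 libraries lay apart beyond counting error. If libraries of a group are assumed to vary with a coefficient of variation of 0.4, the first-step intervals of Nrp2 (0.32 to 3.99) and Nrp1 (-3.34 to 0.32) no longer gave a call, while Plxna1 was still called.

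**Figure D2:**
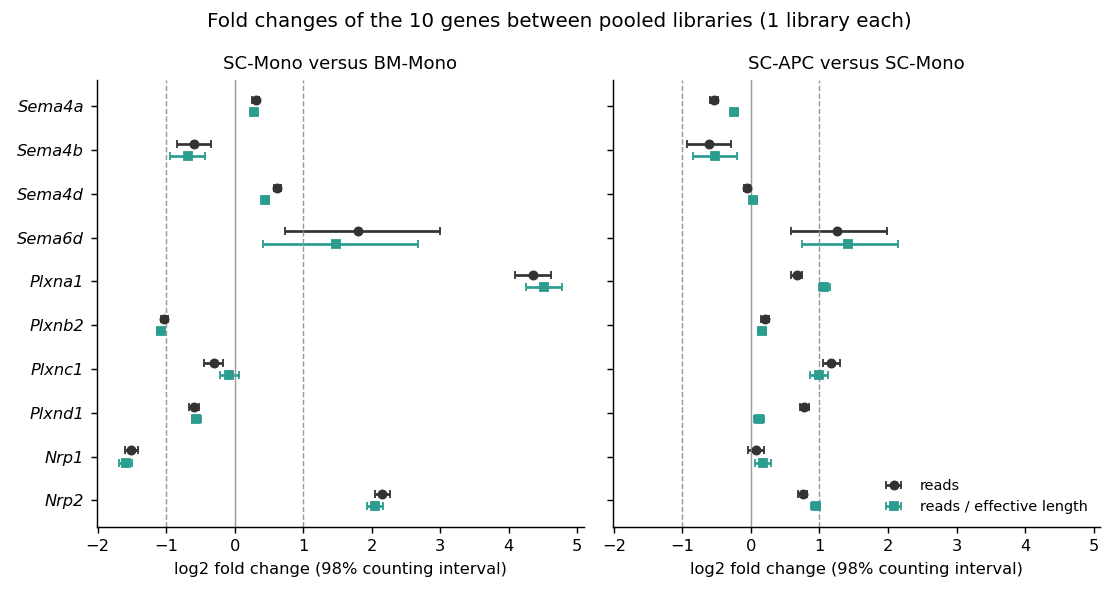
Log2 fold change of the 10 genes from BM-Mono to SC-Mono (left) and from SC-Mono to SC-APC (right), on reads (circles) and on reads divided by effective length (squares), with 98% counting intervals and dashed lines at a 2-fold change. Plxna1 and Nrp2 lie right of the upper line and Nrp1 left of the lower line on the left, and on the right the 2 scales part for Plxnd1 (0.78 and 0.12).

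Across the 10 genes, 25 of the 30 pairs of libraries lay apart beyond counting error in the same direction on both scales, and for 5 genes all 3 libraries did. The pairs that did not were SC-APC and BM-Mono for Sema4a and Plxnd1, SC-APC and SC-Mono for Sema4d and Nrp1, and SC-Mono and BM-Mono for Plxnc1. Counting intervals are narrow at high read numbers, and the same share over all genes was not computed. The count therefore does not set these 10 genes apart from others. Sema6d, Plxna1 and Nrp2 had the order BM-Mono, SC-Mono, SC-APC from low to high. Sema4b had the reverse order, and by TPM alone Plxnb2, Plxnd1 and Nrp1 were highest in BM-Mono and lowest in SC-Mono.

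Within each family the make-up by TPM, which allows levels of different genes to be compared, shifted mostly for the receptors. Nrp1 made up 90.9% of neuropilin TPM in BM-Mono, 44.6% in SC-Mono and 32.1% in SC-APC. By reads its share was 84.2% (95% Wilson interval 83.3% to 85.0%), 29.6% (95% Wilson interval 28.3% to 30.8%) and 20.8% (95% Wilson interval 20.0% to 21.7%). In SC-Mono and SC-APC the TPM of Nrp2 was 1.24 and 2.12 times that of Nrp1, the reverse of their order in BM-Mono.

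Among the 9 plexins, Plxnb2 held 58.5% of plexin TPM in BM-Mono, 41.6% in SC-Mono and 35.8% in SC-APC. Plxna1 held 0.402%, 13.8% and 22.4% in the same order. Summed plexin TPM was 235 in BM-Mono, 132 in SC-Mono and 162 in SC-APC. Summed TPM of the 20 semaphorins was 330.1, 359.6 and 324.6, of which Sema4a held 64.1%, 60.2% and 53.2%. The semaphorin sum thus stayed within a narrower range than the plexin sum.

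**Figure D3:**
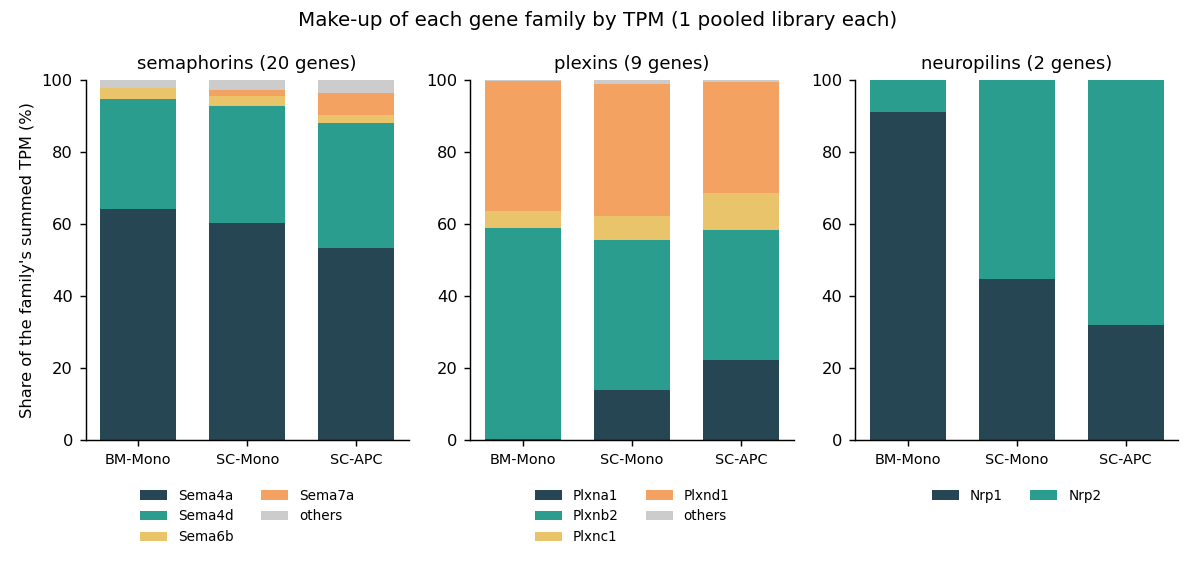
Share (%) of the summed TPM of the semaphorins (20 genes), plexins (9 genes) and neuropilins (2 genes) held by each gene in BM-Mono, SC-Mono and SC-APC, with minor genes joined as others. The Nrp1 share drops from 90.9% to 32.1% across the 3 libraries, and the Plxna1 share goes from 0.402% to 22.4%.

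Of the 21 family genes outside the 10, only Sema4c, Sema6b and Sema7a exceeded 3 TPM in any library. Sema7a, a GPI-anchored semaphorin that binds plexin-C1 and beta1 integrins, had 0 reads in BM-Mono, 254 in SC-Mono and 1226 in SC-APC. That is 5.75 TPM in SC-Mono and 19.3 TPM in SC-APC. In BM-Mono the upper end of the 95% interval for 0 reads was 0.111 TPM, and 3 reads would be worth 0.0870 TPM. Set against a floor of 3 reads in the BM-Mono library, Sema7a was at least 118-fold higher in SC-Mono and at least 512-fold higher in SC-APC, and divided by effective length at least 78.2-fold and 278-fold. In the second step Sema7a was again called higher, at 2.11 on the log2 scale (98% interval 1.88 to 2.35). Sema7a and its receptor gene Plxnc1 were thus both highest in SC-APC.

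Sema4c, a ligand of plexin-B2, had 17, 143 and 366 reads in BM-Mono, SC-Mono and SC-APC, or 0.235, 2.57 and 5.60 TPM. Its second log2 fold change was 1.20 (98% interval 0.87 to 1.53), not called, and from BM-Mono to SC-APC it was called higher, at 4.70 (98% interval 3.95 to 5.59). Sema6b stood at 9.61, 10.6 and 7.81 TPM and was called in no comparison. The class 3 semaphorins, secreted ligands of the neuropilins, stayed low, and the highest of them, Sema3g, reached 0.839 TPM with 0, 61 and 75 reads. The other 18 family genes, Sema3g included, did not exceed that level in any library.

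Other semaphorin receptors and plexin partners were taken from a list of 12 genes, of which 8 were above 3 TPM in a monocyte library, 2 were called higher in SC-Mono and 3 lower, with a median log2 fold change of -0.44 against -0.15 over all genes. Cd72, the lymphocyte receptor of Sema4D, had 1 read in BM-Mono, 172 in SC-Mono and 801 in SC-APC and was called higher in both steps, with a second log2 fold change of 2.06 (98% interval 1.78 to 2.35). B cells and microglia also express Cd72, and the part of the marker changes given above in its values was not tested. Trem2, which associates with plexin-A1, stood at 54.9, 159.9 and 215 TPM and was called higher in the first step, at 1.78 (98% interval 1.66 to 1.90). Its adaptor gene Tyrobp (DAP12) stood at 3077, 2597 and 1675 TPM and was not called. Itga1, the alpha chain of the Sema7A-binding integrin, had 20.4, 5.97 and 4.33 TPM and was called lower in SC-Mono, at -1.78 (98% interval -1.91 to -1.66), whereas the partner chain Itgb1 had 138, 154 and 189.6 TPM. The others called lower were Mst1r and L1cam. Itga1 and Sema7a were thus at opposite ends between BM-Mono and SC-APC.

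The neuropilin ligands and VEGF receptors, a list of 10 genes, had 6 above 3 TPM, of which 4 were called higher in SC-Mono and 0 lower, with a median log2 fold change of 2.55. Vegfa, a ligand of both neuropilins, had 54, 25796 and 31412 reads in BM-Mono, SC-Mono and SC-APC, or 0.916, 567 and 589 TPM. Its first log2 fold change was 9.36 (98% interval 8.93 to 9.84). Flt1, a VEGF receptor gene that is also on the endothelial list, stood at 7.06, 43.1 and 26.8 TPM. Pgf and Vegfb were the others called higher, and none of the 6 was called from SC-Mono to SC-APC. Vegfc, the ligand of Nrp2, had 2, 5 and 9 reads. The endothelial gene Cldn5 had 0, 256 and 137 reads, and its part in these values was not tested.

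Of 20 genes for GTPases and their exchange factors that act with plexins, 12 were above 3 TPM in a monocyte library, 1 was called higher in SC-Mono and 2 lower. Rnd1, a GTPase that binds the cytoplasmic part of plexins, was the one called higher, with 1.57, 26.2 and 15.8 TPM. Tiam1, an exchange factor for Rac, stood at 64.7, 24.4 and 7.97 TPM and was called lower in both steps, at -1.12 (98% interval -1.20 to -1.04) and -1.30 (98% interval -1.43 to -1.18). Rac2 was called lower in the first step. Of 21 cytoskeletal effectors, 15 were above 3 TPM and only the kinase gene Fyn was called, higher in SC-Mono at 1.84 (98% interval 1.68 to 1.99).

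Of 7 genes for proteases that cut or process semaphorins, 5 were above 3 TPM, 2 were called higher in SC-Mono and 0 lower. Mmp14, which can shed Sema4D from the cell surface, had 2.10, 232 and 339 TPM, a first log2 fold change of 7.53 (98% interval 7.16 to 7.93). Furin, which cuts secreted semaphorins, had 66.6, 192 and 146 TPM. In the second step none of the 5 was called. Adam10, a known sheddase, stood at 129, 102 and 103 TPM.

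**Figure D4:**
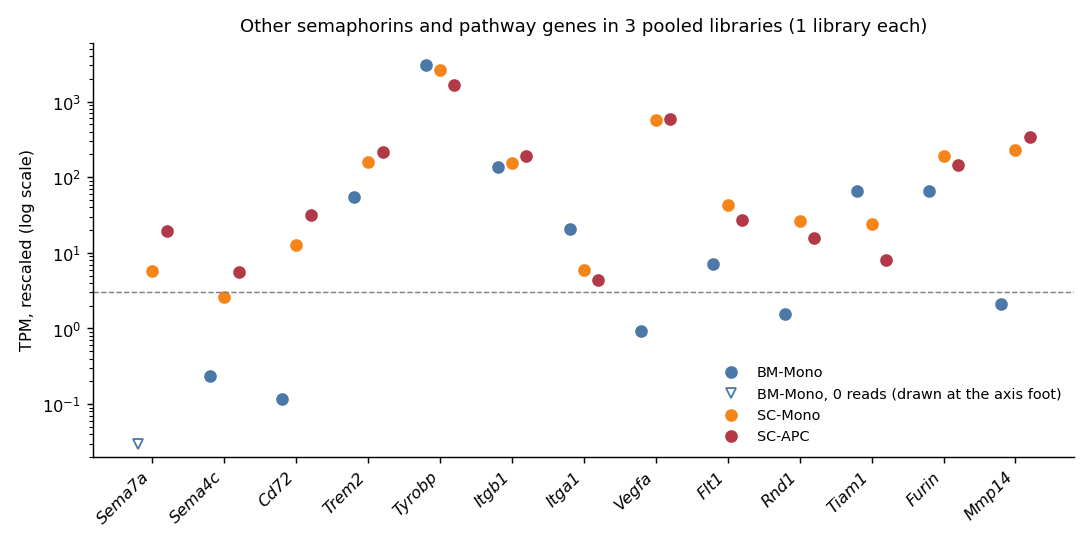
TPM (log axis) of other semaphorins, receptors, ligands, GTPase regulators and proteases in BM-Mono, SC-Mono and SC-APC, 1 point per library, with a dashed line at 3 TPM and an open triangle for 0 reads. Sema7a and Cd72 are lowest in BM-Mono and highest in SC-APC, Tiam1 runs the other way from 64.7 to 7.97 TPM, and Vegfa and Mmp14 are high in both spinal cord libraries.

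Sema4a, Plxnb2 and Nrp1 had the highest TPM of their families when summed over the 3 libraries. For each, genes with the closest pair of log2 fold changes on reads were sought among 8203 genes above 10 TPM. Those of Sema4a were Cdk9, Naip5 and Sertad3, those of Plxnb2 were Papolg, Smpd1 and Nckipsd, and those of Nrp1 included Dek and Slc16a7, all within a distance of 0.0316 on the log2 scale. Effective length was not taken into account. In TPM, Slc16a7 stood at 17.8, 8.28 and 5.64 in BM-Mono, SC-Mono and SC-APC, against 88.0, 24.6 and 26.2 for Nrp1. With 3 libraries such matches are common, and 295, 316 and 123 genes lay within 0.25 of the 3 genes.

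Promoter sequence of 9 of the 10 genes was taken from RefSeq on GRCm38.p6, as the 250 bases before each of 17 annotated starts. Shown are those of Nrp2, called higher in SC-Mono, of Plxnb2, high in BM-Mono, and of Plxnc1, called higher in SC-APC on reads, each without bases past the GENCODE start of the gene. They lie at chr1:62703067-62703284 (plus strand), chr15:89180789-89181038 (minus strand) and chr10:94944846-94945095 (minus strand). Capitals mark matches, on either strand, to the GC box GGGCGG, to the EGR motif GCGNGGGCG, which can overlap a GC box, and to the interferon response element.
Nrp2: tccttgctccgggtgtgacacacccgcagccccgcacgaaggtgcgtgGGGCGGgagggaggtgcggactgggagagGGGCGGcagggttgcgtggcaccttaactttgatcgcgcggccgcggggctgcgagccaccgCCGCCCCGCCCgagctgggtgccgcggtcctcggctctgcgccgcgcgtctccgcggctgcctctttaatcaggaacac
Plxnb2: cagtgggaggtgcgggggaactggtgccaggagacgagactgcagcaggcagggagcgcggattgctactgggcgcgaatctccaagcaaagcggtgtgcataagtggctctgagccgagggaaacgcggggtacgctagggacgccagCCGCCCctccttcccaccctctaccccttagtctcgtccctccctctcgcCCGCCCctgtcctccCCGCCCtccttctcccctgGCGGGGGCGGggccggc
Plxnc1: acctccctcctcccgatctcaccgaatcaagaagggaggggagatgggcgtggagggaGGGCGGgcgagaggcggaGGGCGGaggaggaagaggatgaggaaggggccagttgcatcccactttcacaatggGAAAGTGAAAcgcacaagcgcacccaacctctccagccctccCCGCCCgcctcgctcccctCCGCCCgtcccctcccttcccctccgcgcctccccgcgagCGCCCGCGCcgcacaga

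All 9 genes held a GC box in at least 1 window, in 13 of 17 windows, against 32.7% of 32851 windows of the same length over all genes. GC content was 72.4% in the Nrp2 window, 69.2% in that of Plxnb2 and 68.8% in that of Plxnc1, against a median of 52.4% over all windows of 250 bases. The EGR motif was found in Plxnb2 and Plxnc1 and in 4.70% of all windows, and the interferon response element in Plxnc1 alone and in 2.98% of all windows. Neither GAGGAAGT, a PU.1 motif, nor the NF-kappa B motif nor the TATA box TATAAA was found in the 17 windows, against 2.44%, 1.21% and 12.4% of all windows. The AP-1 motif TGANTCA was in 1 window, of Sema4d (6.75% of all), the hypoxia response element ACGTG in 4 (16.6%), the E-box CACGTG, which contains it, in 2 (6.02%), and CCAAT in 3 (33.8%). These matches describe letters in the window and are not evidence of binding.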

How the data were processed

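The authors describe estimated reads and TPM per gene from Salmon 0.14.1 with GENCODE vM22 transcripts (mm10), from 50 bp paired-end reads of 3 libraries. The transcripts of each gene were pooled. This description names no separate set for the APC library, and the transcript set behind its shorter gene list is not given in the sources used here. The estimated counts, as deposited, are not normalized and were rounded to whole reads here. TPM, as deposited by the authors, is normalized for effective length and library size and was rescaled over the 22238 common genes, which held 84.9%, 85.3% and 99.99% of TPM in BM-Mono, SC-Mono and SC-APC. Gene lengths and effective lengths were used as deposited.

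Differential expression was modelled on the GFold criterion of the study's methods but computed anew, as the ratio of 2 gamma posteriors (reads plus 1) with percentiles 1 and 99, on the whole table. The filter of 3 TPM differs from the study's activity threshold, which was set on log2 TPM. The calculation was tested on simulated data with counting error alone, with changes well beyond 2-fold in genes with many reads. That test did not cover changes near the threshold, changed genes with few reads, spread between libraries or differing transcript sets. No test across samples can be made with 1 library per group, so p-values are absent. TPM has a 95% Wilson interval, which covers counting error only, and the floor is 3 reads. GENCODE M21 (GRCm38) gave symbols and coordinates, and 99.0% of the common genes had there an identical versioned identifier. Other settings were total reads or TMM factors (edgeR 4.0.16, R 4.3.3), division by effective length, no TPM filter, an assumed coefficient of variation of 0.4, a plain 2-fold change and TPM as deposited. Size factors from 2 libraries or from genes above 3 TPM were added after seeing the data. Named were the 10 genes, family genes above 3 TPM, and the called or 3 most abundant genes of each list. Mog, Lyve1, Vegfc and Sema3g were named after their values were seen. Some genes that the rule names are not reported here. The members and lists were chosen with earlier results of these data known. Calculations ran in Python 3.11.15 (numpy 2.4.6, scipy 1.17.1, pandas 2.3.3) and plots in matplotlib 3.10.9.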

Additional observations from a re-analysis of the deposited data

How the results depend on the processing

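Over 8 other settings, 3 comparisons and the 10 genes, 227 of 240 log2 fold changes stayed on their side of the call without a reversal beyond counting error. Part of this agreement was fixed in advance. No TPM filter, the assumed spread and a plain 2-fold change kept the same log2 fold changes. The assumed spread could only remove calls, a plain 2-fold change could only add them, and dropping the TPM filter could change only Sema6d. Sema4d from SC-Mono to SC-APC (-0.05 to 0.03) and Sema4a from BM-Mono to SC-APC (-0.38 to 0.03) changed sign only on reads divided by effective length. From BM-Mono to SC-Mono, the count called lower went from 1 to 2, with Plxnb2 added, on total reads (-1.21), on reads divided by effective length (-1.08), by a plain 2-fold change, and with size factors from the 2 libraries alone (-1.05). With a coefficient of variation of 0.4 added, that comparison had 1 called higher and 0 lower. From SC-Mono to SC-APC the count called higher was 0 with that spread and 0 on reads divided by effective length. From BM-Mono to SC-APC the count called lower was 2 on total reads and by a plain 2-fold change, with Sema4b added (-1.35 on total reads), and 0 with the added spread. With no TPM filter, 3 rather than 2 were called higher there, with Sema6d added (3.07). Plxnd1 in that comparison was -0.44 on reads divided by effective length against 0.18 on reads, and the cause was not tested. Total reads shifted all log2 ratios of the first step by -0.18, and size factors over genes above 3 TPM by 0.15. Over all genes, the assumed spread left 622 called higher and 218 lower in the first step, and 41 and 14 in the second, against 1386, 1073, 188 and 165. No TPM filter gave 2622 higher in the first step and 385 higher and 292 lower in the second, where a plain 2-fold change gave 326 and 302 and division by length 320 lower. From BM-Mono to SC-APC, 714 and 222 were left with the assumed spread and 2870 were higher with no filter, against 1426 and 1199. TPM as deposited left the number of values above 3 at 25 of 30. No replicate could be left out, and no paired analysis was possible because each population had 1 library. Counting intervals do not cover the spread between mice.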
